A study of Mus musculus with 10 samples.

Results

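Chemokines are small, mostly secreted proteins that guide migrating cells, and their receptors are G protein-coupled receptors on those cells. The chemokine and chemokine receptor genes of mouse hair follicle stem cells (HFSCs) were taken from the deposited expression table as every row whose symbol follows the official ligand names (Ccl, Cxcl, Cx3cl, Xcl and a number) or receptor names (Ccr, Cxcr, Cx3cr, Xcr and a number). The rows Gm2506 and Gm13306, copies of Ccl27, were added. This gave 60 of 37298 gene rows, of which 41 are ligand rows and 19 receptor rows. With the 4 Ccl27 copies taken as 1 family there were 57 families. Ccl25 has 2 rows under different identifiers.

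RNA was sequenced in 4 libraries of HFSCs sorted from resting back skin of mice on a mixed C57BL6 background, and SOX9 binding was mapped by chromatin immunoprecipitation (ChIP-seq) in 3 libraries from untreated CD-1 females of day 52 to 60. The labels put 2 of the RNA libraries down as conditional knockout (cKO) of Sox9. The other 2 are controls, called Sox9 Het in their titles and wild type in their genotype field. Replicate 1 of each genotype is male, day 75, given RU486 from day 48 to 61. Replicate 2 of each is female, day 80, given RU486 from day 53 to 66. The RU486 activates CrePGR, the recombinase Cre joined to the progesterone receptor, and all 4 sorts took cells with high integrin α6, with CD34 and YFP and without the marker written ScaI. The promoter driving CrePGR, the deleted exons, and whether a library came from 1 mouse or several were unstated in the sources used here. The ChIP libraries are 2 from HFSCs sorted by the same surface markers and 1 from interfollicular epidermal (IFE) cells, which lacked CD34. The study's title points to signals that HFSCs secrete into their niche, and chemokines are among the secreted proteins such cells can make.

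As background, chemokines fall into classes by the arrangement of their first cysteines (CC, CXC, CX3C and XC), and most receptors bind ligands of a single class. The follicle is a known source of chemokines in skin: Ccl2 is known from the isthmus, Ccl20 from the infundibulum and Ccl8 from the bulge, where they steer Langerhans cell precursors. Cxcl14 and Ccl27 are made by resting keratinocytes, Cxcl9 and Cxcl10 by cells exposed to interferon, and Cxcl1 and Ccl2 are classical inflammatory attractants of neutrophils and monocytes.

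The RefSeq promoter windows (build GRCm38.p6, with 250 bases before the start shown 5′ to 3′ on the gene's strand) of 5 ligands are printed. The first pair was chosen as the most alike among the windows of Ccl27a and Ccl27b, with capitals at the bases that differ. Ccl27a lies on the minus strand at chr4:41770213-41770462 and Ccl27b on the plus strand at chr4:42655001-42655250. The aligned windows match at 286 of 288 bases. A further RefSeq window of Ccl27b, chosen in the same way, matches a window of Gm13306 at 300 of 300. Ccl27a has 3 windows, and Ccl27b and Gm13306 have 4 each, so these values do not describe every start. No window was matched for Gm2506.
Ccl27a: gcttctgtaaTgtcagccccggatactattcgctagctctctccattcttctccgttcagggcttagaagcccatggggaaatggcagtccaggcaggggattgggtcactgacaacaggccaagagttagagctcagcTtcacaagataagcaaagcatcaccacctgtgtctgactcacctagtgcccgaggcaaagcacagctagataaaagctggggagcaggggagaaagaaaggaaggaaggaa
Ccl27b: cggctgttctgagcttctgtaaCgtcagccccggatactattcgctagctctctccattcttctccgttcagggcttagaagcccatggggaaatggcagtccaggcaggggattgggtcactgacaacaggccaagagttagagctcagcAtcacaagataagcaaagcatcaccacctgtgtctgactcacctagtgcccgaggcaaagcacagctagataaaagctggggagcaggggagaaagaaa

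The other windows are of ligands whose values are described for each library, chosen because a searched motif was found there, with the match in capitals. Cxcl10 (minus strand, chr5:92348890-92349139) holds GAAA, any 2 bases and GAAA, the core of interferon-response elements, from position -213 relative to the start. Cxcl1 (plus strand, chr5:90890995-90891244) holds an NF-κB site, GGGA directly followed by ATTTCC, from position -71. Ccl20 (plus strand, chr1:83116516-83116765) holds the SOX-family motif ACAAAG on the reverse strand from position -117.
Cxcl10: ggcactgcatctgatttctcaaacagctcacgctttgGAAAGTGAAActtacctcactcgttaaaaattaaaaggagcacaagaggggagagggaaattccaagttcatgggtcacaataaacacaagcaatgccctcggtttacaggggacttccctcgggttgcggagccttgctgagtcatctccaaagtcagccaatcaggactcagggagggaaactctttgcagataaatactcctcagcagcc
Cxcl1: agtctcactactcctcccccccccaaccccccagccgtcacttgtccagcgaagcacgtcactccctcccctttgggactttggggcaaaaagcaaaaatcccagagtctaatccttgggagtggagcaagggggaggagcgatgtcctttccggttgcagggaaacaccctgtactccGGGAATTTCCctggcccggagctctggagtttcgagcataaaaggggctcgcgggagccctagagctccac
Ccl20: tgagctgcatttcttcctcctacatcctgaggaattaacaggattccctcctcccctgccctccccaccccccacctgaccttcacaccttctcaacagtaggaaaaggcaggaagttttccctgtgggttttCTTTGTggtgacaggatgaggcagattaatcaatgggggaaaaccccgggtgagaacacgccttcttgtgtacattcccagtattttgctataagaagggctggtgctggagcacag

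Windows matched 43 of the 60 rows and 13 of the 17 with a mean of at least 1 FPKM (fragments scaled by transcript length and by the mapped fragments of the library). On either strand of all 32851 windows, ACAAAG was found in 18.7%, ACAATG in 12.6%, the NF-κB site GGGA followed by CTTTCC in 0.155% and by ATTTCC in 0.0883%, and the interferon-response core, a motif added after the values were seen, in 3.44%. Among the 13 genes with windows these were found in 1, 0, 0, 1 and 2, and the second gene with the interferon-response core was Cxcl14. No match overlapped another in these windows. A match is a description of the letters in the window and says nothing of binding.

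The 10 listed HFSC markers summed to 18390 and 22890 FPKM in the libraries labelled cKO, against 20250 and 19120 FPKM in the controls (here and below, replicate 1 precedes replicate 2 within each genotype). Keratins, of which Krt5 and Krt14 mark all basal keratinocytes, made up 94.8% and 96.7% of that sum in the labelled cKO libraries, against 92.7% and 94.5% in the controls. Of the others, Lhx2, a transcription factor of these stem cells, had 114 and 87.1 FPKM in the labelled cKO libraries, against 359 and 195 FPKM in the controls. Cd34, a surface marker of bulge cells, had 459.5 and 463 FPKM in the labelled cKO libraries, against 652 and 679.98 FPKM in the controls. For both, each labelled cKO library lay below each control. The 10 markers did not share a direction. In replicate 1, 9 were lower and 1 higher in the labelled cKO library, while in replicate 2, 4 were lower and 6 higher. Across both pairs, 4 were lower each time and 1, Itga6, was higher each time. Sox9 itself had 71.3 and 80.5 FPKM in the labelled cKO libraries, against 82.7 and 46.5 FPKM in the controls, and the groups overlapped. Its log2 difference was 0.28 ± 0.43 (moderated SE, limma adjusted p = 1.00), so its mean over the whole gene was not the lower one in the libraries labelled cKO. A gene-level value does not show whether the targeted exons were lost. Summed FPKM over all genes was 584125 and 903766 in the labelled cKO libraries, against 555420 and 786914 in the controls. Replicate 2 stood above replicate 1 in both genotypes, and the labelled cKO library stood above its control in each pair. Read numbers were unstated in the sources used here. In such bulk libraries, fewer cells of a type and less RNA per cell cannot be told apart.

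Chemokine expression in the sorted cells was dominated by a few epithelial ligands. All 60 rows together made up 1.15% and 1.23% of the summed FPKM in the labelled cKO libraries, against 0.659% and 0.666% in the controls. Receptors took little of this: the 19 receptor rows summed to 12.1 and 10.6 FPKM in the labelled cKO libraries, against 10.8 and 13.6 FPKM in the controls. A mean of at least 1 FPKM over the 4 libraries, the limit for testing, was reached by 15 ligand rows (12 families) and 2 receptors, Cxcr7 and Cxcr4. Of the 43 rows below it, 6 reached 0.5 FPKM in at least 1 library, 25 were lower but above 0 somewhere, with 0.492 FPKM the highest value, and 12 were listed at 0 in every library.

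On the FPKM scale, which is per transcript length, Cxcl14 had the highest mean (1893 FPKM), followed by the Ccl27 copies (means of 1126 to 1174 FPKM). The libraries of these families overlapped in level, so their order is not fixed. Cxcl12 came next with a mean of 101 FPKM and Cxcl16 with 41.0 FPKM. Each of these stood apart from its neighbours in every library: the lowest Ccl27 value (461 FPKM) exceeded the highest Cxcl12 value (125 FPKM), and the lowest Cxcl12 value (74.5 FPKM) exceeded the highest of Cxcl16 (49.995 FPKM). Cx3cl1 (mean 9.24 FPKM) and Cxcr7 (mean 8.45 FPKM) overlapped each other. The other 8 tested rows, Ccl20, Ccl6, Cxcl1, Ccl2, Ccl7, Cxcl10, Cxcr4 and Ccl25, had means of 1.29 to 2.43 FPKM, with no library above 5.45 FPKM. Most of their ranges overlapped, but each library of Ccl20 (1.72 FPKM or more) lay above each library of Cxcr4 and Ccl25 (1.63 FPKM or less).

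**Figure D1:**
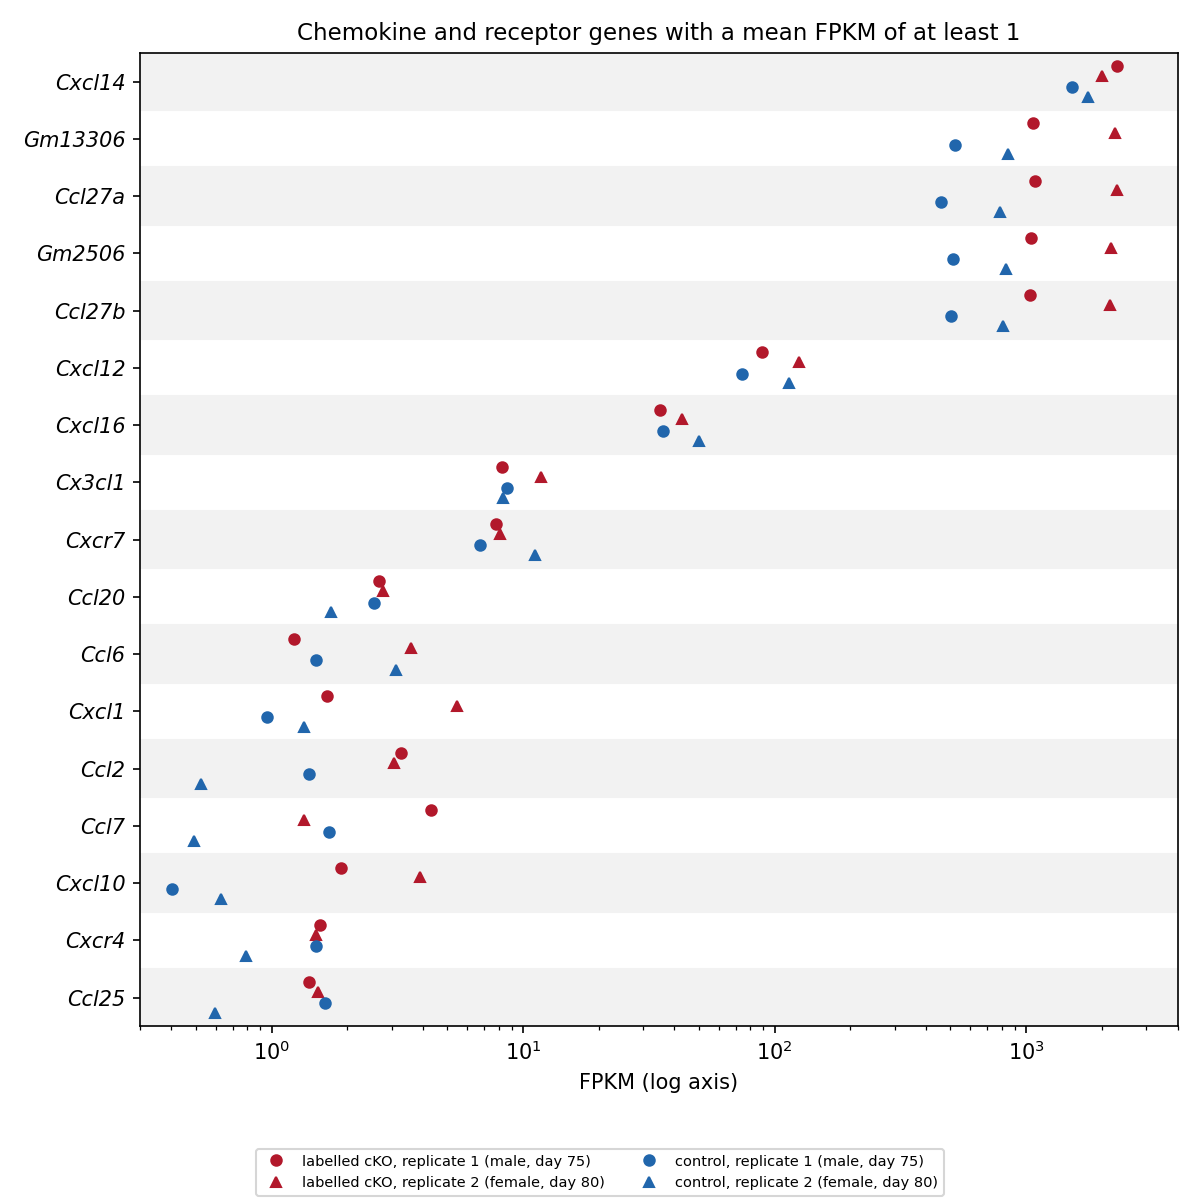
FPKM on a log axis of the 17 chemokine and receptor rows with a mean of at least 1 FPKM, 1 point per library (red, labelled cKO; blue, control; circles, replicate 1; triangles, replicate 2). Cxcl14 and the Ccl27 copies lie at 461 FPKM or more in every library, and the red points of Cxcl14, Ccl27, Ccl20, Cxcl1, Ccl2 and Cxcl10 lie right of both blue points.

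The first comparison asks which chemokine genes differ between the HFSCs labelled Sox9 cKO and the control HFSCs. Among tested rows whose groups separated, the labelled cKO libraries were the higher ones: 9 of 17 tested rows, from 6 families, had both labelled cKO libraries above both controls. The families are Ccl27, Cxcl14, Ccl20, Cxcl1, Ccl2 and Cxcl10. Of all 14455 tested genes, 5.47% had this order. The reverse order, seen in 8.42% of tested genes, was found for 0 of the 17 rows. These counts depend on the limit for testing. Cxcl10 had both controls below 1 FPKM (0.403 and 0.631 FPKM), and the controls of Ccl2 (1.41 and 0.524 FPKM) averaged below 1 FPKM. Both genes reached the limit through their labelled cKO values. Among the low rows that were not tested, Ccl22, Cxcr5, Ccr7 and the lower Ccl25 row had the reverse order. Cxcl9 and Cxcr2, also not tested, had both labelled cKO libraries above both controls. Within same-numbered pairs, 12 rows (9 families) were above their control in both, as were 28.4% of tested genes. The median log2 difference of the 17 rows was 0.39, and 0.26 with the Ccl27 copies counted once (n = 14), beside a median of -0.01 over all tested genes. The families were not drawn at random, so these counts and medians are descriptions.

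In the limma fit on genotype alone, 0 of the 17 rows and 0 of all 14455 genes (0%) were called at an adjusted p under 0.05. Before adjustment, 93 genes (0.643%) and 2 of the 17 rows, Cxcl10 and Ccl2, had p under 0.05. Both of these rows reached the limit for testing through their labelled cKO values. Same-numbered libraries share sex, age and days of treatment, and with the replicate number as a block the fit called 41 genes (0.284% of those tested), 15 of them higher (0.104% of those tested). These included the 4 Ccl27 rows, which are 1 family, and no other chemokine or receptor row. Before adjustment 11.4% of all genes and 9 of the 17 rows, from 6 families, had p under 0.05 in the blocked fit, all 9 higher in the labelled cKO libraries. Only 1 residual degree of freedom per gene remained with the block, and p-values measure only the spread between these 4 libraries.

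Ccl27 is the keratinocyte ligand of Ccr10 that draws T cells to skin. Its 4 rows were called higher in the libraries labelled cKO by the blocked fit. Their sum was not called with the block (limma adjusted p = 0.0532), and no row was called with genotype alone. Ccl27a had 1085 and 2289.5 FPKM in the labelled cKO libraries, against 461 and 788 FPKM in the controls. Both labelled cKO libraries exceeded both controls, and within each genotype replicate 2 exceeded replicate 1. The labelled cKO library was 2.36 times its control in replicate 1 and 2.91 times in replicate 2.

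The Ccl27a log2 difference was 1.39 ± 0.14 in the blocked limma fit (adjusted p = 0.0273, 95% interval 1.05 to 1.72) and 1.39 ± 0.76 with genotype alone (limma adjusted p = 1.00). With genotype alone it was 0.85 without labelled cKO replicate 2 and 1.92 without labelled cKO replicate 1. The other copies moved with it. Ccl27b had 1034 and 2152 FPKM in the labelled cKO libraries, against 504 and 813 FPKM in the controls. Gm13306 had 1068 and 2254 FPKM in the labelled cKO libraries, against 523 and 851 FPKM in the controls. Gm2506 had 1046 and 2177 FPKM in the labelled cKO libraries, against 513 and 834 FPKM in the controls. All 3 had both labelled cKO libraries above both controls. The blocked log2 difference was 1.22 for Ccl27b, 1.22 for Gm13306 and 1.20 for Gm2506, each with a limma adjusted p of 0.0347. The Ccl27 calls did not hold in the blocked fit with no filter on low values, with quantile normalization or with no mean trend, where the limma adjusted p of Ccl27a was 0.742, 0.106 and 0.217.

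The 4 rows are not 4 measurements, because reads of near-identical copies can be split among them. In the labelled cKO libraries the other copies stood at 94.0% to 98.4% of the Ccl27a value, and in the controls at 103% to 114%. Summed, the copies had 4233 and 8872 FPKM in the labelled cKO libraries, against 2002 and 3286 FPKM in the controls. The summed family differed by 1.26 ± 0.17 on the log2 scale in the blocked limma fit and missed the threshold (adjusted p = 0.0532). The table gives Ccl27a the interval chr4:41647021-41721120 (mm9), which it shares with Il11ra1, Dctn3, Galt and others. Il11ra1, which encodes an interleukin receptor chain, had 185 and 328 FPKM in the labelled cKO libraries, against 209 and 287 FPKM in the controls, and these groups overlapped. Markers of differentiated epidermis summed to 2505 and 4662 FPKM in the labelled cKO libraries, against 2641 and 7275 FPKM in the controls. The sum was lower in the labelled cKO library of each pair. Of the 4 markers, 3 were lower and 1, Krt10, was higher there in replicate 1 (1768 against 1729 FPKM). All 4 were lower in replicate 2. The part of such cells in the Ccl27 values was not tested. The strand setting of the counting was unstated in the sources used here.

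Cxcl14, a conserved CXC ligand abundant in resting epithelium, had 2299 and 1999 FPKM in the labelled cKO libraries, against 1518 and 1757 FPKM in the controls. Both labelled cKO libraries were the higher ones, by 1.51 times in replicate 1 and 1.14 times in replicate 2. The blocked log2 difference was 0.39 ± 0.16 and did not pass after adjustment (limma adjusted p = 0.423). After quantile normalization the difference was 0.050.

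Cxcl10, the interferon-induced ligand of Cxcr3, had 1.89 and 3.89 FPKM in the labelled cKO libraries, against 0.403 and 0.631 FPKM in the controls. The groups did not overlap, and the ratio was 4.70 in replicate 1 and 6.17 in replicate 2. Its log2(FPKM + 1) difference was 1.31 ± 0.28 in the blocked limma fit (adjusted p = 0.183), with a standard error of 0.41 and a limma adjusted p of 1.00 with genotype alone. Cxcl9, a ligand of the same receptor and under the limit for testing, had 0.613 and 2.09 FPKM in the labelled cKO libraries, against 0.0301 and 0.366 FPKM in the controls. Cxcl11, the third ligand of Cxcr3, and Cxcr3 itself were listed at 0 in every library. The Cxcl10 interval is shared with Art3, which had 1.97 and 8.97 FPKM in the labelled cKO libraries, against 2.65 and 5.37 FPKM in the controls.

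Ccl2 and Ccl7, neighbouring genes whose products attract monocytes through Ccr2, were low and uneven. Ccl2 had 3.27 and 3.07 FPKM in the labelled cKO libraries, against 1.41 and 0.524 FPKM in the controls, and the groups did not overlap. Ccl7 had 4.32 and 1.35 FPKM in the labelled cKO libraries, against 1.69 and 0.493 FPKM in the controls, so labelled cKO replicate 2 lay below control replicate 1. Within pairs, Ccl2 was 2.32 and 5.86 times and Ccl7 2.55 and 2.74 times its control in replicates 1 and 2. Neither passed adjustment in the blocked limma fit: the log2 difference was 1.12 ± 0.27 for Ccl2 (adjusted p = 0.247) and 0.82 ± 0.25 for Ccl7 (adjusted p = 0.367).

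Cxcl1, which attracts neutrophils through Cxcr2, had 1.66 and 5.45 FPKM in the labelled cKO libraries, against 0.962 and 1.34 FPKM in the controls. The groups did not overlap, but labelled cKO replicate 2 stood far above the other 3 libraries. The log2 difference of 0.95 ± 0.31 did not pass in the blocked limma fit (adjusted p = 0.369). Ccl20, the ligand of Ccr6, had 2.66 and 2.78 FPKM in the labelled cKO libraries, against 2.54 and 1.72 FPKM in the controls. The replicate 1 libraries were nearly level, and the blocked log2 difference was 0.26 ± 0.24 (limma adjusted p = 0.746).

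The other ligands overlapped between the groups. Cxcl12, which binds Cxcr4 and Cxcr7, had 89.4 and 125 FPKM in the labelled cKO libraries, against 74.5 and 115 FPKM in the controls. Cxcl16, a membrane-anchored ligand of Cxcr6, had 35.1 and 42.7 FPKM in the labelled cKO libraries, against 36.1 and 49.995 FPKM in the controls, and was the only tested row below its control in both pairs, an order seen in 29.6% of tested genes. The blocked log2 difference was 0.19 ± 0.12 for Cxcl12 (limma adjusted p = 0.603, 95% interval -0.09 to 0.48). It was -0.13 ± 0.13 for Cxcl16 (limma adjusted p = 0.772, 95% interval -0.44 to 0.18).

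Cx3cl1, the membrane-anchored ligand of Cx3cr1, had 8.27 and 11.8 FPKM in the labelled cKO libraries, against 8.60 and 8.30 FPKM in the controls. Ccl6, a mouse CC ligand known from myeloid cells, had 1.23 and 3.58 FPKM in the labelled cKO libraries, against 1.503 and 3.13 FPKM in the controls. Ccl25, the ligand of Ccr9, had 1.41 and 1.52 FPKM in its higher row in the labelled cKO libraries, against 1.63 and 0.598 FPKM in the controls. For all 3 ligands the labelled cKO library lay below its control in replicate 1 and above it in replicate 2. Their blocked limma adjusted p-values were 0.746 for Cx3cl1, 0.995 for Ccl6 and 0.802 for Ccl25.

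**Figure D2:**
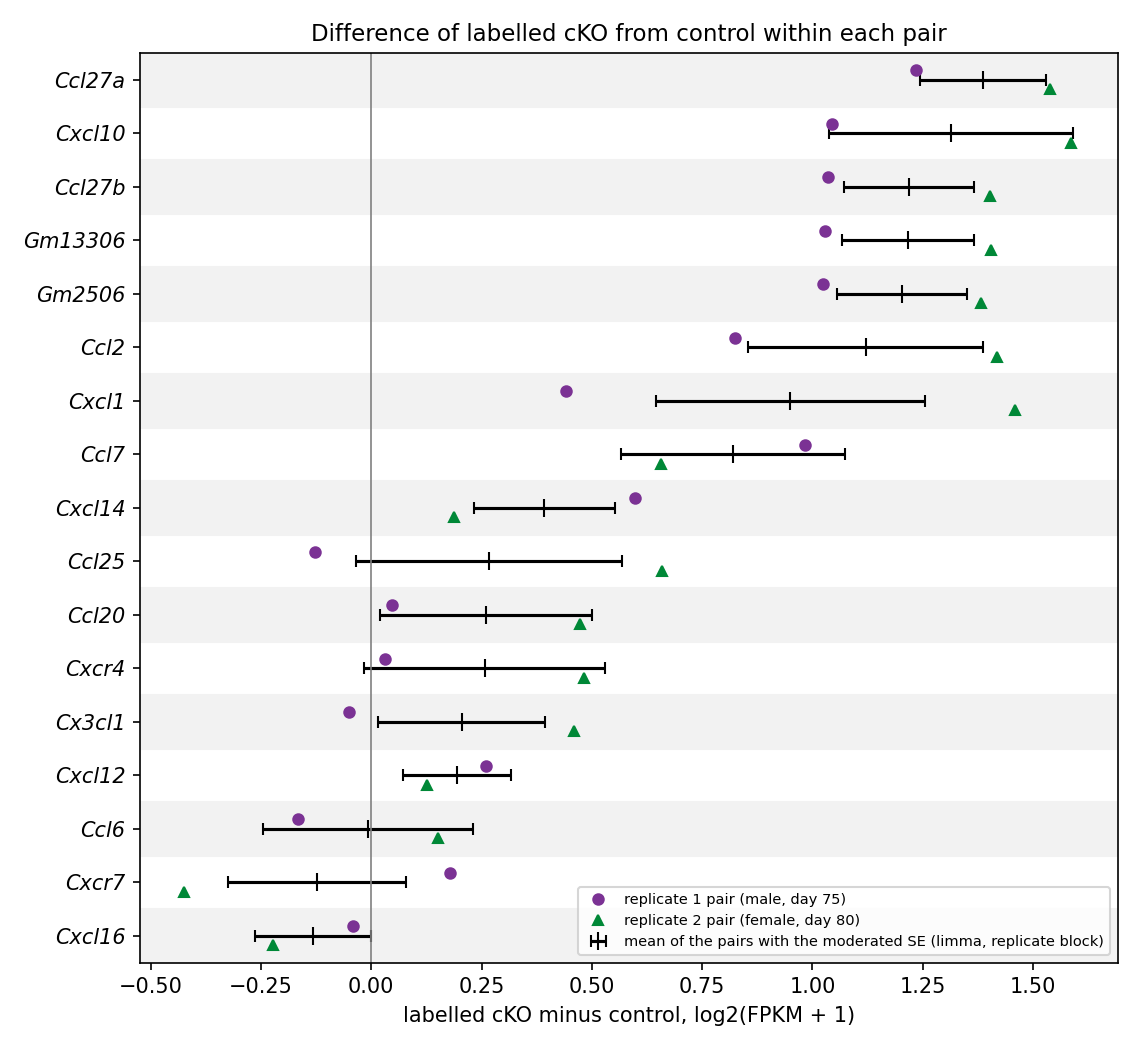
Difference of the labelled cKO library from its same-numbered control on the log2(FPKM + 1) scale for the 17 tested rows (circles, replicate 1 pair; triangles, replicate 2 pair), with the mean of the pairs as a tick and limma's moderated standard error from the blocked fit as a bar. Ccl27a, at a mean of 1.39, and Cxcl10, at 1.31, lie furthest right, and Cxcl16 is the only row with both pairs below 0.

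Among receptors, Cxcr7, an atypical receptor that takes up Cxcl12, had 7.78 and 8.09 FPKM in the labelled cKO libraries, against 6.76 and 11.2 FPKM in the controls. Cxcr4, the signalling receptor of Cxcl12, had 1.559 and 1.5001 FPKM in the labelled cKO libraries, against 1.503 and 0.789 FPKM in the controls. The groups overlapped for Cxcr7, and for Cxcr4 labelled cKO replicate 2 lay just below control replicate 1. Blocked log2 differences were -0.12 ± 0.20 for Cxcr7 (95% interval -0.60 to 0.35) and 0.26 ± 0.27 for Cxcr4, with limma adjusted p of 0.871 and 0.788.

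Of the other receptors under the naming rule, Ccr4 reached 1.58 FPKM, and the rest stayed at 0.640 FPKM or less in each library. Ccr10, the receptor of Ccl27, had 0.434 and 0.129 FPKM in the labelled cKO libraries, against 0.424 and 0.0193 FPKM in the controls. Cxcr6, the receptor of Cxcl16, had 0.424 and 0.0913 FPKM in the labelled cKO libraries, against 0.640 and 0.129 FPKM in the controls. For both, replicate 1 stood above replicate 2 in either genotype. Cxcr2 reached at most 0.275 FPKM, Ccr6 0.116 FPKM, Cx3cr1 0.0365 FPKM and Ccr2 0.000862 FPKM in any library, and Ccr1, Ccr3, Cxcr1 and Cxcr3 were listed at 0 in every library. Because the depth is unknown, a listed 0 is not evidence of absence.

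Ccr4, the receptor of Ccl22 on skin-homing T cells, was the highest of the untested receptors, with 1.58 and 0.316 FPKM in the labelled cKO libraries, against 1.09 and 0.949 FPKM in the controls. Ccl22, a ligand known from dendritic cells, had 0.524 and 0.295 FPKM in the labelled cKO libraries, against 0.766 and 1.08 FPKM in the controls. It was low, but both labelled cKO libraries lay below both controls. Cxcl2, another neutrophil attractant, had 0.165 and 0.915 FPKM in the labelled cKO libraries, against 0.260 and 0.532 FPKM in the controls, with no common order in the pairs. Xcl1, the ligand of Xcr1, had 0.221 and 0.170 FPKM in the labelled cKO libraries, against 0.0781 and 0.720 FPKM in the controls, which also differed in order between the pairs. Ccl8 was listed at 0 in 3 libraries and had 0.470 FPKM in labelled cKO replicate 2.

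**Figure D3:**
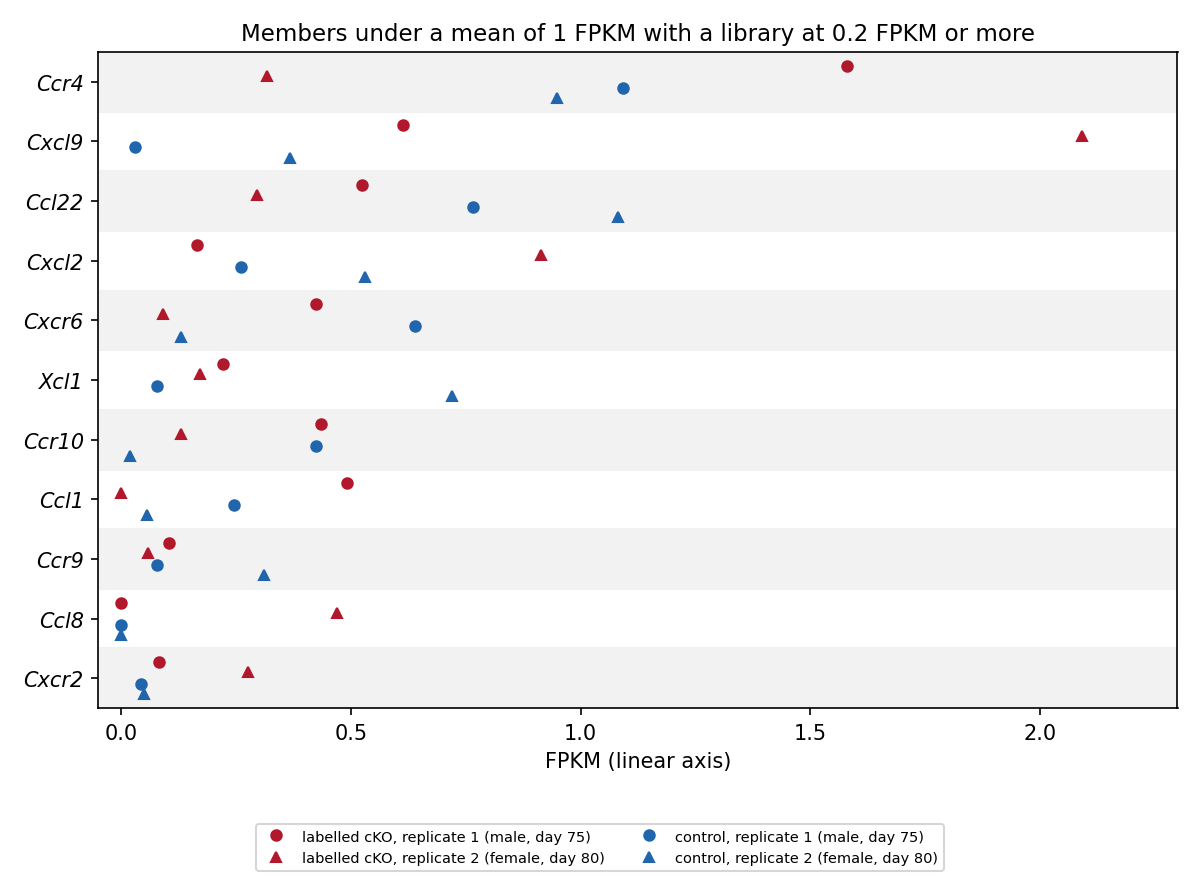
FPKM on a linear axis of 11 rows under a mean of 1 FPKM with at least 1 library at 0.2 FPKM or more (colours and symbols by library as in the legend). Only Ccr4, Cxcl9 and Ccl22 pass 1 FPKM in any library, and the Cxcl9 point of labelled cKO replicate 2 at 2.09 FPKM is the highest.

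Among markers of other cells that a sort can hold, the sums for immune, fibroblast and endothelial cells were low beside the HFSC sum but not at 0. Markers of differentiated epidermis were not low, with sums of 2505 to 7275 FPKM. Sebocyte markers summed to 351 and 321 FPKM in the labelled cKO libraries, against 246 and 275 FPKM in the controls. Upper follicle sums lay between 64.1 and 83.9 FPKM, and melanocyte sums between 14.15 and 46.6 FPKM. Leukocyte markers (4 of 4 detected) summed to 6.28 and 17.2 FPKM in the labelled cKO libraries, against 5.81 and 17.6 FPKM in the controls, and Ptprc, which encodes the pan-leukocyte protein CD45, was at most 0.390 FPKM. Macrophage markers (7 of 7) summed to 16.2 and 33.5 FPKM in the labelled cKO libraries, against 14.2 and 29.7 FPKM in the controls. Langerhans and dendritic markers (5 of 5) summed to 64.0 and 110 FPKM in the labelled cKO libraries, against 68.7 and 180 FPKM in the controls. They were lower in the labelled cKO library of each pair, as Ccl22 was. T cell markers (5 in the table) summed to 1.93 and 1.61 FPKM in the labelled cKO libraries, against 1.91 and 4.50 FPKM in the controls.

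Fibroblast markers (6 of 6 in the table) summed to 22.5 and 22.4 FPKM in the labelled cKO libraries, against 16.9 and 8.64 FPKM in the controls. Most of that sum was Col1a2, at 21.9 and 13.8 FPKM in the labelled cKO libraries, against 14.8 and 7.40 FPKM in the controls. In replicate 1 Col1a2 was the 1 marker of the 6 that was higher in the labelled cKO library, and 5 were lower there, while in replicate 2 all 6 were higher. Col1a1, for example, had 0.336 and 6.99 FPKM in the labelled cKO libraries, against 1.80 and 0.802 FPKM in the controls. Lum, a marker of fibroblasts, was listed at 0 in labelled cKO replicate 1 and had 0.386 FPKM in labelled cKO replicate 2. Mast cell markers summed to at most 0.2701 FPKM, with 2 of 4 listed at 0 in every library, and endothelial markers (5 of 5) to 0.411 and 0.306 FPKM in the labelled cKO libraries, against 0.167 and 0.138 FPKM in the controls. The part of these cells in the chemokine values was not tested.

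Genes that work with chemokines were listed by role. With genotype alone limma called 0 in each of the 6 lists, and Sulf2 was the only gene with p under 0.05 before adjustment. The lists held 2 tested ligands outside the naming rule, 2 atypical receptors, 11 genes of signal transduction, 5 proteases, 10 genes of heparan sulfate and 19 inducers or regulators. The blocked fit called 1, Sulf2, an enzyme that edits the heparan sulfate on which chemokines are displayed. Sulf2 fell to 7.09 and 8.28 FPKM in the labelled cKO libraries, against 24.4 and 23.1 FPKM in the controls, a log2 difference of -1.51 ± 0.16 (limma with the block, adjusted p = 0.0273; genotype alone, adjusted p = 1.00). The groups did not overlap. Sulf2 was not called in the blocked fit with no filter, quantile normalization or no mean trend.

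Mmp2, a protease that trims chemokines, had 96.7 and 66.1 FPKM in the labelled cKO libraries, against 51.96 and 54.2 FPKM in the controls, and did not pass (limma with the block, adjusted p = 0.341). Ccrl1, an atypical receptor that takes up Ccl25 and other ligands, has a higher and a lower row under different identifiers. The higher row stood well above Cxcr7, at 146 and 178 FPKM in the labelled cKO libraries, against 149 and 145 FPKM in the controls. The lower row had 0.286 and 0.379 FPKM in the labelled cKO libraries, against 0.667 and 0.282 FPKM in the controls. Ccrl2, a related receptor, had 2.20 and 2.16 FPKM in the labelled cKO libraries, against 1.61 and 2.88 FPKM in the controls. Ccrl1, in either row, and Ccrl2 overlapped between the groups.

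The second comparison sets replicate 2 (female, day 80) against replicate 1 (male, day 75). Sex, age and batch cannot be told apart in it. Without a term for genotype, limma called 6266 of 14455 genes (43.3% of those tested, and 22.4% higher), and 2 of the 17 chemokine and receptor rows. Ccl6 had 3.58 and 3.13 FPKM in the replicate 2 libraries (labelled cKO, then control), against 1.23 and 1.503 FPKM in replicate 1. It rose by 0.88 ± 0.21 on the log2 scale (limma adjusted p = 0.0191). Cxcl12 had 125 and 115 FPKM in replicate 2, against 89.4 and 74.5 FPKM in replicate 1, and rose by 0.55 ± 0.16 (limma adjusted p = 0.0344). In both, each replicate 2 library exceeded each replicate 1 library. Neither was called without labelled cKO replicate 1 or without control replicate 1, where the limma adjusted p was 0.105 and 0.0984 for Ccl6 and 0.0970 and 0.236 for Cxcl12. Cxcl12 was also lost without labelled cKO replicate 2 (limma adjusted p = 0.0822), and after quantile normalization its difference was 0.12 (limma adjusted p = 0.499). With no filter on low values neither passed (limma adjusted p = 0.0648 for Ccl6 and 0.0747 for Cxcl12).

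With genotype as a second term 7221 genes (50% of those tested, and 25.8% higher) and 7 of the 17 rows, from 4 families, were called: Ccl6, Cxcl12, Ccl7 and the 4 Ccl27 copies. Ccl27a had 2289.5 and 788 FPKM in the replicate 2 libraries, against 1085 and 461 FPKM in replicate 1, a log2 difference of 0.92 ± 0.14 (limma adjusted p = 0.00217) that turned to -0.044 after quantile normalization. With no term for genotype it was 0.16 without labelled cKO replicate 2 and 0.31 without control replicate 1. Ccl7 went the other way, with 1.35 and 0.493 FPKM in replicate 2, against 4.32 and 1.69 FPKM in replicate 1, a log2 difference of -1.01 ± 0.25 (limma adjusted p = 0.0147). The values of Ccl27a overlapped between the replicates, because control replicate 2 lay below labelled cKO replicate 1, and those of Ccl7 did not. Macrophage markers summed to 33.5 and 29.7 FPKM in replicate 2, against 16.2 and 14.2 FPKM in replicate 1, and 5 of the 7 were higher in replicate 2 in both genotypes. Most of that sum was Itgam, at 27.6 and 20.3 FPKM in replicate 2, against 9.57 and 7.13 FPKM in replicate 1, while Cd68 went the other way, at 1.92 and 2.46 FPKM in replicate 2, against 5.01 and 4.56 FPKM in replicate 1. The Leukocyte and the Langerhans and dendritic lists were also higher in sum in replicate 2. The part of these cells in the Ccl6 values was not tested.

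**Figure D4:**
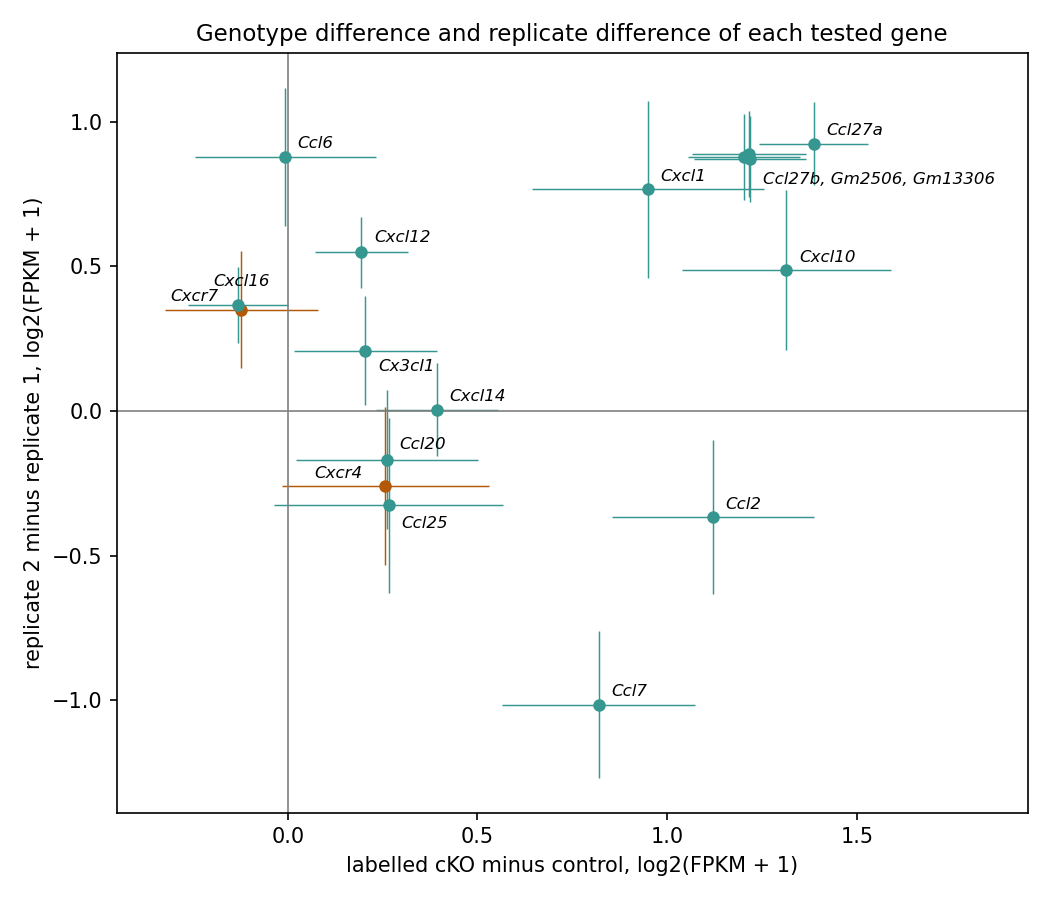
Log2(FPKM + 1) difference of labelled cKO from control (x axis) and of replicate 2 from replicate 1 (y axis) for the 17 tested rows, from 1 limma fit with both terms (green, ligands; orange, receptors; bars, moderated standard errors). The Ccl27 copies lie high on both axes (their replicate difference turns negative after quantile normalization, to -0.044 for Ccl27a), Ccl6 and Cxcl12 differ mainly by replicate, and Ccl7 is 0.82 higher by genotype and has -1.01 by replicate.

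SOX9 peaks near these genes were counted within 10 kb of the loci of the table (mm9). The peak lists hold 8181 and 2989 peaks in HFSCs and 5209 in IFE cells. They give a position only, and the loci give no strand or exon, so peaks are placed by locus. Both HFSC lists held a peak at 6 of the 60 rows, from 5 separate intervals: Cxcl14, Ccl27a, Ccl20, Ccr10 and the interval of Cxcl10 and Cxcl11. Of all gene rows 10.6% had such peaks. Among tested rows it was 4 of 17, beside 17.5% of all tested genes. Peaks in HFSC list 1 were found at 10 of 60 rows (22.6% of all rows) and 7 of 17 tested rows (34.9% of tested genes), in list 2 at 9 rows (14.4%) and 4 tested rows (24.2%), and in the IFE list at 9 rows (22.5%) and 5 tested rows (36.3%). Any list had a peak at 16 rows (32.7%) and 9 tested rows (51.4%). These shares are near the background. Chemokine loci are short, with a median of 8.22 kb beside 17.1 kb over all rows, and the rows with a peak in both HFSC lists had a median of 51.1 kb. With the 50 kb window the count was 12, and without loci that overlap another gene row it was 2, Cxcl14 and Ccl20. The share over all rows was not computed for either setting, so these counts cannot be set against a background.

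At Cxcl14 (chr13:56390008-56397912) the lists disagreed on position. HFSC list 1 had a peak at chr13:56394296-56394835 and list 2 at chr13:56397409-56398150, which did not overlap each other. The IFE peak at chr13:56397256-56397804 overlapped that of list 2 by 396 bp. At Ccl20 (chr1:83113341-83115742) the peaks lay 3881 to 3909 bp beyond the locus, at chr1:83119623-83120396 and chr1:83119651-83120211 in HFSCs and chr1:83119637-83120211 in IFE cells, and all 3 overlapped.

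The shared Ccl27a interval held 3 peaks in HFSC list 1, 1 in list 2 and 2 in the IFE list. The peak of list 2, chr4:41687656-41688607, overlapped a peak of list 1, chr4:41687952-41688466, by 515 bp, and an IFE peak by 465 bp. None of the other copies had a peak within 10 kb: the nearest lay 55.7 kb from Gm13306, 250.9 kb from Gm2506 and 333 kb from Ccl27b. Near-identical copies also make short reads hard to place, and the handling of such reads was unstated in the sources used here.

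The interval of Cxcl10 and Cxcl11, chr5:92760853-92843654, held overlapping HFSC peaks at chr5:92819558-92820332 and chr5:92819458-92820199 and none in the IFE list. The IFE list is a single library, and the difference was not tested. Ccr10 (chr11:101023993-101052038) had HFSC peaks at chr11:101031608-101031965 and chr11:101031569-101032096 and an IFE peak at chr11:101031604-101031955, all overlapping.

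Other rows had a peak in fewer lists. HFSC list 1 alone had a peak at the lower edge of Ccl7 (chr11:81858948-81859393), which also lay 6884 bp beyond Ccl2, a peak 8974 bp beyond Cxcr7 and a peak 4766 bp from Ccr7. The IFE list alone had peaks at Cx3cl1 (chr8:97297396-97298079) and Ccl25 (chr8:4324618-4325503). The long shared interval of Cxcr6 and Ccr9 had a peak in HFSC list 2, which also lay within 10 kb of Xcr1, and another in the IFE list. Several of the tested genes had none nearby. The nearest peak in any list lay 30.05 kb from Cxcl12, 21.2 kb from Cxcl16 and 37.7 kb from Cxcl1.

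**Figure D5:**
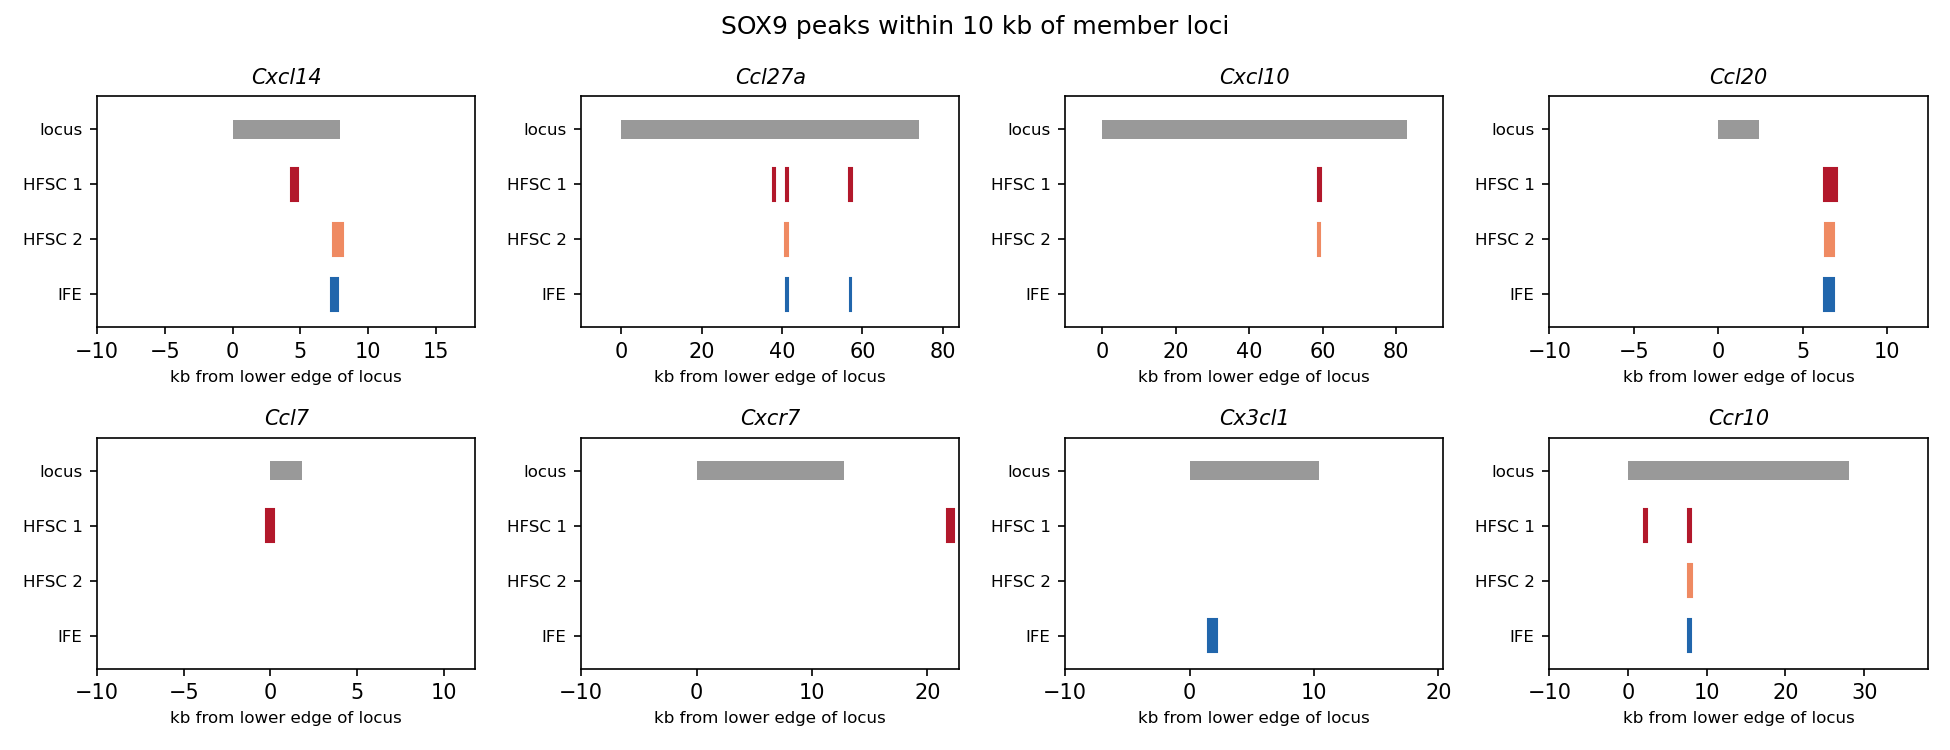
SOX9 peaks of the 3 lists around 8 loci, as distance in kb from the lower edge of the locus interval of the table (grey bar), with 10 kb shown on either side. Peaks of all lists coincide beyond Ccl20, the Cxcl10 interval has them in both HFSC lists only, and Ccl7 and Cxcr7 have 1 in HFSC list 1 only.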

How the data were processed

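Expression values were deposited by the authors as FPKM in 1 table (37298 rows, 1 column for each RNA library), per the file headers. SOX9 peaks were deposited by the authors as positions only, in 1 list per ChIP library, with no score. Cufflinks 1.0.3, TopHat, TopHat2, Bowtie and the build mm9 are named without roles in the submitters' processing notes. The peak caller and the handling of strand and multi-mapped reads were unstated in the sources used here. FPKM depends on transcript length and library total, and low values showed no whole-read step (the fullest bin of ratios between libraries held at most 3.51%), so depth is unknown, no count model was used and no counting interval could be given.

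Genes with a mean of at least 1 FPKM (14455) were tested as log2(FPKM + 1), a scale that understates changes of low genes, with limma 3.58.1 in R 4.3.3 (empirical Bayes with mean trend, two-sided, Benjamini-Hochberg over all genes, threshold 0.05). The stated model held genotype only. The replicate block was the alternative. Numbers pair the libraries, since per the labels each number shares sex, age and treatment days; deviations of same-numbered libraries from the group means had a correlation of 0.812 over genes, which are no replicates. The code was tested on simulated data. Peak starts and locus starts were shifted by 1 to count from 1. Alternatives were pseudocounts of 0.1 and 5, no filter, quantile normalization, no mean trend, each library left out and other peak windows. Every member with a mean of at least 1 FPKM is described with its values, lower ones where a library reached 0.5 FPKM or a peak lay within 10 kb, and up to 4 genes per pathway list by smallest p were eligible. The members and lists were chosen with earlier results of these data known. The 3 input libraries were not analysed here.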

Additional observations from a re-analysis of the deposited data

How the results depend on the processing

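Limits came first from numbers: 2 libraries per genotype, 1 residual degree of freedom with the replicate block, and an unknown depth that leaves values near 0 without an error. Leaving out 1 library in the genotype-only fit gave 2 to 41 called genes and 0 called chemokine or receptor rows; the lone library left in a group is assumed to vary like the others. Log2 ranges were 0.85 to 1.92 for Ccl27a, 0.94 to 1.69 for Cxcl10, 0.79 to 1.45 for Ccl2, 0.31 to 1.59 for Cxcl1, 0.23 to 1.41 for Ccl7 and 0.29 to 0.50 for Cxcl14, all above 0. They crossed 0 for Cxcl12 (-0.11 to 0.50), Cxcl16 (-0.36 to 0.10), Ccl6 (-0.53 to 0.51), Cx3cl1 (-0.027 to 0.44), Ccl25 (-0.094 to 0.63), Cxcr7 (-0.45 to 0.20) and Sox9 (-0.13 to 0.69). With the replicate block, the count of called genes was 41 as reported above, 33 with a pseudocount of 0.1, 3 after quantile normalization, and 0 with no filter or no mean trend. The 4 Ccl27 rows were called with the block and with the block and a pseudocount of 0.1, and 0 rows under the other blocked settings, where Ccl27a had limma adjusted p of 0.742 (no filter), 0.106 (quantile) and 0.217 (no mean trend). Ccl6 turned to 0.0087 with a pseudocount of 5 and to 0.033 with quantile normalization, with or without the block. Of 170 log2 changes of single rows computed in the genotype comparison with all libraries under other settings, 159 kept direction and side of the threshold. In the replicate comparison, no filter gave 3822 called genes and 1 called row, which was Ccr10 (limma adjusted p = 0.0432), a row under the mean of 1 FPKM, while Ccl6 and Cxcl12 were lost. No mean trend gave 1 row, Ccl6, with Cxcl12 at a limma adjusted p of 0.05001, and genotype as a second term 7 rows. Leaving out 1 library gave 0 to 6296 genes and 0 to 7 rows (0 genes without labelled cKO replicate 1, 1 without control replicate 1, and 7 rows without control replicate 2). Quantile normalization moved the median of all tested genes by under 0.1 and turned Cxcl14 to -0.86 (limma adjusted p = 0.0110), Ccl27b to -0.075, Gm2506 to -0.077, Gm13306 to -0.053 and Ccl27a to -0.044. Ranges without 1 library crossed 0 for Ccl2 (-1.08 to 0.34), Cxcl14 (-0.29 to 0.30), Cxcl10 (-0.31 to 1.28), Cx3cl1 (-0.021 to 0.44), Ccl25 (-0.66 to 0.0038) and Ccl20 (-0.41 to 0.069). The count of rows with a SOX9 peak in both HFSC lists was 6 at 10 kb, 12 at 50 kb, and 2 without loci that overlap another gene row, a setting chosen after seeing the data. Shares over all rows were computed only at 10 kb with overlapping loci kept. A stricter peak threshold was not run, because the lists hold no score. The cause of these changes was not tested.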

Other observations

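Among genes that act with chemokines, limma called 21 of the 49 tested (42.9%) in the replicate comparison, close to the 43.3% called among all genes, so the share is not particular to them. Of the 5 tested proteases 3 were lower and 1 higher in replicate 2. Adam17, which sheds Cx3cl1 from the membrane, had 20.7 and 21.9 FPKM in replicate 2 (labelled cKO, then control), against 39.9 and 41.3 FPKM in replicate 1 (limma adjusted p = 0.00502). Adam10, which sheds Cx3cl1 and Cxcl16, had 6.87 and 6.30 FPKM in replicate 2, against 14.9 and 12.8 FPKM in replicate 1 (limma adjusted p = 0.00644). Of the 10 tested heparan sulfate genes 4 fell and 0 rose, among them Sdc2, a syndecan core protein, with 17.3 and 16.7 FPKM in replicate 2, against 33.3 and 37.6 FPKM in replicate 1 (limma adjusted p = 0.00473). Mif, a cytokine that also binds Cxcr4, rose to 339 and 306 FPKM in replicate 2, against 174 and 160.0 FPKM in replicate 1 (limma adjusted p = 0.00683). In each of these 4 genes the replicates did not overlap. Without labelled cKO replicate 1, or without control replicate 1, 0 of these pathway genes were called. Sex, age and batch cannot be told apart here.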
